A study of Mus musculus with 22 samples.

Results

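The 45 genes described here encode the machinery that copies DNA in S phase. They were chosen by name for their roles in replication: 6 subunits of the MCM helicase, 6 of the origin recognition complex, 3 factors that govern helicase loading, 6 that activate the helicase, 9 subunits of the DNA polymerases and primase, 6 of the sliding clamp and its loader, 3 of the single-strand binding protein RPA, 2 that join the fragments of the lagging strand, and 4 enzymes of nucleotide supply. All 45 were found among the 43430 genes of the files, and all 45 passed the filter on low counts that left 15084 genes to test.

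RNA was sequenced from muscle stem cells (satellite cells) of the hindlimbs of Pax7-zsgreen mice, a reporter line in which cells expressing Pax7, the transcription factor that marks these cells, fluoresce green. The cells came from uninjured muscle, or from muscle 1 or 3 days after cardiotoxin, a venom toxin that destroys muscle fibres. Each state was labelled ZT4 or ZT16, where zeitgeber time (ZT) counts hours from lights on, which gave 3 uninjured libraries at each time and 4 libraries at each time on day 1 and on day 3, 22 in all. In the labels of injured groups the hour belongs to the injury, and the hour of collection is not given. Uninjured muscle had no injury, and what its hour marks is not given. The series' design text names injury at ZT16 and day 1 only, while the sample labels name all 6 groups. Every group shared the genotype, the perfusion with cold saline and a mild paraformaldehyde fixative quenched with glycine, and the isolation of the green, lightly fixed cells, whose RNA was extracted with a kit made for fixed tissue. Age and sex of the mice are not given in the sources used here. Nothing says that replicates were separate mice, so p-values measure the spread between these libraries, which may be technical.

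Library totals ran from 5965957 to 9751536 estimated counts. All 10 markers of muscle stem cells, among them Pax7, Myf5 and Cdh15, were detected in every group, with 2 called higher and 6 lower at day 1 than in uninjured cells. Their summed CPM (counts-per-million, a gene's count scaled to the total of its library) ran from 7736 to 10185 in uninjured libraries, from 4597 to 5837 at day 1 and from 3882 to 4734 at day 3. The 12 macrophage and monocyte markers summed to between 19.4 and 88.7 CPM in uninjured libraries, between 1324 and 4195 at day 1, and between 270.5 and 966 at day 3, with no marker of the list at 0 in any group. The 7 neutrophil markers summed to at most 3.98 CPM in uninjured libraries, to between 29.01 and 296.5 at day 1, and to at most 16.3 at day 3. A pair of uninjured ZT16 libraries, replicates 1 and 3, stood apart, with 71978 and 62020 CPM summed over 12 immediate early genes, against 1666 to 5043 in the other 4 uninjured libraries.

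DNA replication is licensed in G1, when the origin recognition complex, CDC6 and CDT1 load the MCM2-7 ring onto DNA as an inactive double hexamer, and geminin blocks further loading once S phase has begun. The ring becomes an active helicase when CDC45 and the GINS complex bind it. DNA polymerase alpha and primase then lay down primers, the clamp PCNA tethers the replicative polymerases delta and epsilon, and ribonucleotide reductase supplies the building blocks. Many of these genes are known targets of E2F transcription factors. Satellite cells rest in a quiescent state in uninjured muscle, and injury brings them back into the cell cycle.

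All 45 genes rose at day 1 after injury, and all 45 were higher than in uninjured cells at day 3 as well (edgeR's quasi-likelihood test, Benjamini-Hochberg adjusted p under 0.05 over all genes tested). Of all 15084 genes tested, 34.6% were called higher at day 1 and 37.9% at day 3. The median log2 fold change of the 45 genes was 2.60 at day 1 and 2.15 at day 3, against -0.125 and -0.026 for all genes tested. The change was at least 1 log2 unit for 40 genes at day 1 and 37 at day 3, and at least 3 units for 14 and 9. Over all 15084 genes tested, 2930 at day 1 and 3325 at day 3 were called higher by at least 1 unit. At least 3 units were reached by 815 and 1038. Both comparisons share the 6 uninjured libraries, so their counts are not independent.

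Levels in CPM, from here on with library totals adjusted by the TMM method, separated the states with little overlap. Every day 1 library was above every uninjured library for 43 of the 45 genes (95.6%), and for 21.5% of all genes tested; the exceptions were Orc4 and Gins4. Every day 3 library was above every uninjured library for 40 genes (88.9%), and for 24.6% of all genes tested, the exceptions being Orc4, Orc5, Gins3, Gins4 and Pold3. In bulk RNA, fewer cells with a transcript and less RNA per cell cannot be told apart.

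**Figure D1:**
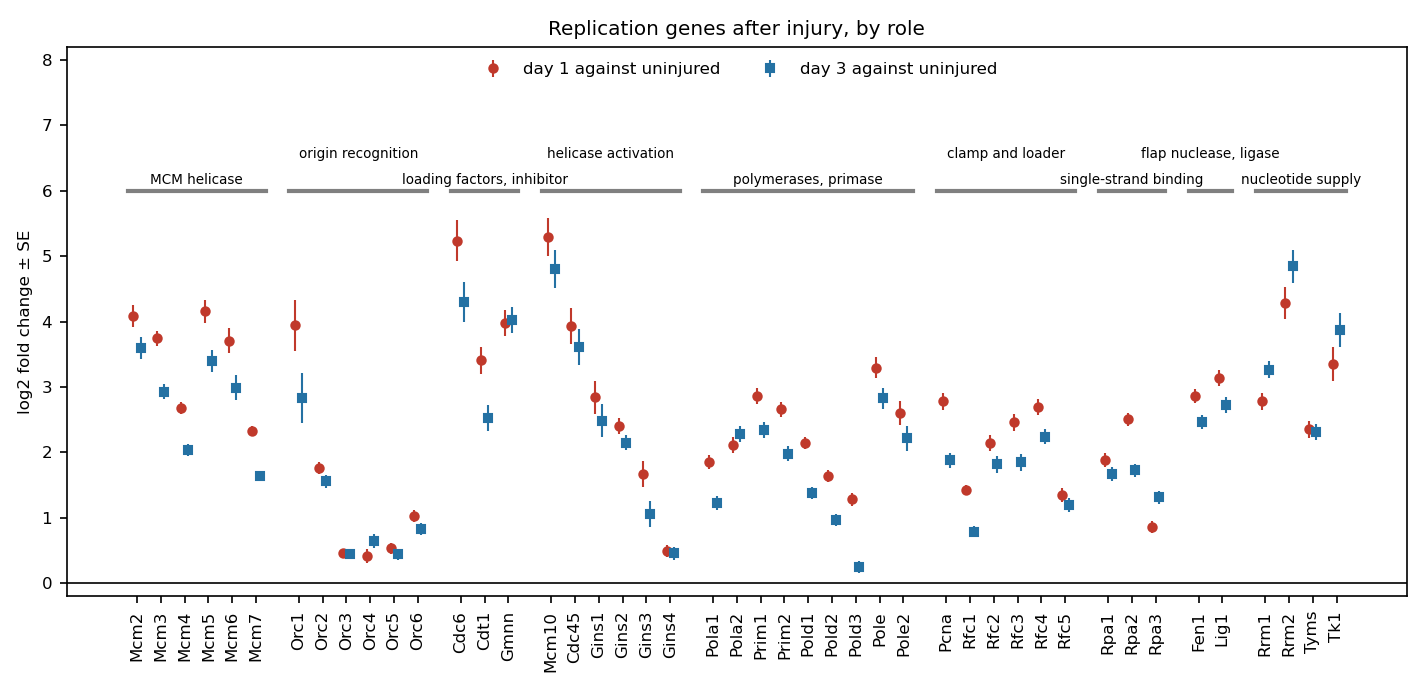
Log2 fold change (vertical axis, mean of both times, bars ± SE derived from edgeR's test) of each of the 45 genes, ordered by role, at day 1 (red circles) and day 3 (blue squares) against uninjured. All points lie above 0; Mcm10 and Cdc6 are highest at day 1 (5.29 and 5.24), and Orc3, Orc4, Orc5 and Gins4 lie near 0.5 or lower at day 1.

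Macrophage markers moved with the states: 12 of 12 rose at day 1 and at day 3 against uninjured. The 45 genes summed to between 8331 and 9899 CPM (not TMM-scaled) over the 8 day 1 libraries, and the day 1 ZT4 replicate 3 library, with the highest macrophage sum (4195), had 9015, while ZT16 replicate 4, with the lowest (1324), had 9899. The part of other cells in the rise was not tested.

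The promoters of the genes were compared, and their sequence was not used in choosing the genes by name. Many of the genes are known E2F targets, so a high share of E2F words was likely beforehand and is given as a description only. RefSeq windows of 300 bases (250 before and 50 after the start site, build GRCm38.p6) were matched for 37 of the 45 genes by symbol; Gins1, Gins2, Gins4, Gmnn, Mcm4, Pole, Prim2 and Rfc2 were not matched. The windows were searched on both strands for 4 words of the E2F site (TTTCCCGC, TTTCGCGC, TTTGCCGC and TTTGGCGC, some of which overlap one another in a window), for CCAAT, the core of NF-Y sites, and for TTTGAA, the CHR element of genes expressed in G2 and mitosis. The 37 genes had 45 windows, and a gene counted if any of its windows held the word. Positions are counted from the start site of the window that holds the word. An E2F word stood in a window of 15 of the 37 genes (40.5%), of 2.6% of 27025 genes with a window and of 4.63% of those tested. It was in 4 of 5 MCM genes, 4 of 7 polymerase genes, 2 of 6 origin recognition genes, and in both Cdc6 and Cdt1, and in none of the 3 RPA and 4 nucleotide supply genes. The stretches below are shown because these genes load or form the helicase, recognise origins, prime DNA or seal it. Not every gene with a word is shown. Orc3, of the origin recognition complex, has a word at -41, is not shown and rose least of the 15 at day 1 (0.46). Each stretch gives 30 bases 5′ to 3′ on the gene's strand with the word, or its reverse complement, in capitals.
Mcm3: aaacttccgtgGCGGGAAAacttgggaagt
Mcm5: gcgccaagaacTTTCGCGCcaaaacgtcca
Mcm6: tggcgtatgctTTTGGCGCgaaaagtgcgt
Mcm7: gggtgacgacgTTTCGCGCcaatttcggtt
Orc1: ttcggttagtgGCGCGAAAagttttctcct
Cdc6: gccggtggagaGCGGGAAAtcgcctggggt
Cdt1: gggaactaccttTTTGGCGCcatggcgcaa
Pola1: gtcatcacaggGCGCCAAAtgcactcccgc
Lig1: cgccaaagtgcGCGCGAAAtctgtgtggcg

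These stretches lie at chr1:20820275-20820304 (minus strand) for Mcm3, chr8:75109345-75109374 (plus) for Mcm5, chr1:128359797-128359826 (minus) for Mcm6 and chr5:138171849-138171878 (minus) for Mcm7. Those of the other genes are at chr4:108579416-108579445 (plus) for Orc1, chr11:98908002-98908031 (plus) for Cdc6, chr8:122568035-122568064 (plus) for Cdt1, chrX:93632275-93632304 (minus) for Pola1 and chr7:13278841-13278870 (plus) for Lig1. Counted from the start site, the first base of the word is at -153 in Mcm5, -110 in Mcm6, -138 in Cdc6 and in Pola1 and -27 in Orc1, and after the start at 20 in Mcm3, 17 in Mcm7, 33 in Cdt1 and 27 in Lig1. In Mcm5 and Mcm6 the word shown overlaps a second word on the opposite strand. CCAAT stood in a window of 23 of 37 genes (62.2%, against 41.1% of all genes with a window and 42.7% of those tested), including 5 of 5 MCM genes. TTTGAA stood in a window of 5 of 37 genes (13.5%, against 20.2% of all genes with a window and 14.5% of those tested). On a mitosis list it stood in 14 of 19 genes (73.7%). The median log2 fold change at day 1 was 2.60 for the 15 genes with an E2F word and 2.43 for the 22 without. From day 1 to day 3 the medians were -0.72 with a word and -0.21 without, given as a description with no test. Genes without an E2F word in any window included Mcm10, which rose most of all 45. A word match describes letters only and is not a binding site.

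**Figure D2:**
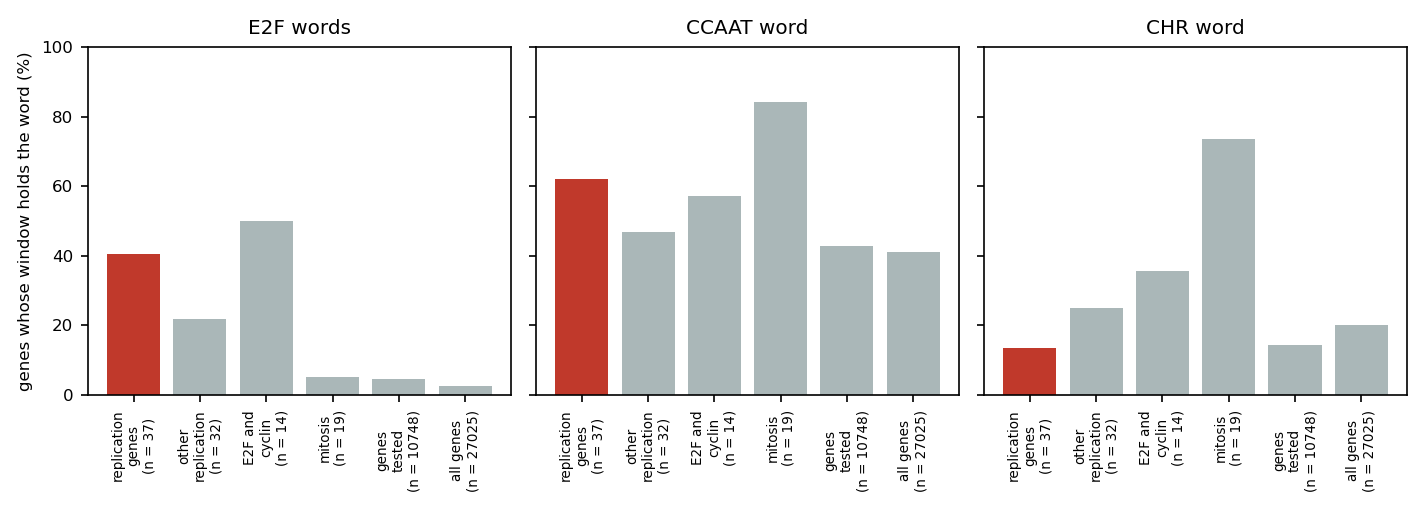
Percentage of genes (vertical axis) with an E2F word, CCAAT or the CHR word TTTGAA in any of their 300-base promoter windows, for the 45 replication genes (37 with a window), other lists and all genes. An E2F word is in a window of 40.5% of the replication genes, against 2.6% of all genes with a window. TTTGAA is in 13.5%, against 20.2% of all genes with a window, 14.5% of those tested and 73.7% of the mitosis list.

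The origin recognition complex was the role with the smallest median rise, 0.78 log2 units at day 1, and its subunits differed. Orc1, the subunit whose level is known to follow the cell cycle, had 0.284, 1.15 and 6.31 CPM (lowest, median, highest) in the 6 uninjured libraries, 24.9, 28.8 and 43.7 in the 8 day 1 libraries, and 7.55, 14.3 and 20.99 in the 8 day 3 libraries. The ranges of the 3 states did not overlap. The log2 fold change of Orc1 against uninjured was 3.94 ± 0.38 (SE) at day 1 (edgeR's quasi-likelihood test, Benjamini-Hochberg adjusted p = 7.659e-09) and 2.83 ± 0.38 at day 3 (adjusted p = 8.792e-07), and day 3 fell by 1.11 ± 0.28 from day 1 (adjusted p = 0.002141).

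Orc4, a core subunit, had 38.8, 65.5 and 92.0 CPM in uninjured libraries, 73.6, 84.3 and 109.5 at day 1, and 86.2, 100.5 and 121 at day 3, and its ranges overlapped in all 3 states. Its log2 fold change was 0.42 ± 0.11 at day 1 (edgeR adjusted p = 0.0009202), the smallest of the role, and 0.645 ± 0.11 at day 3 (adjusted p = 5.488e-06). Orc5, another core subunit, had 32.5, 38.2 and 49.7 CPM, then 52.8, 55.9 and 64.5, then 43.3, 53.8 and 60.8, so that uninjured libraries overlapped those of day 3 and not those of day 1. It rose by 0.53 ± 0.09 at day 1 and by 0.44 ± 0.09 at day 3 (edgeR adjusted p = 8.169e-05). Orc3, also of the core, had 68.3, 72.7 and 80.1 CPM, then 89.4, 102 and 107.5, then 87.6, 99.9 and 109.4, with both injured states above every uninjured library and overlapping each other. It rose by 0.46 ± 0.07 at day 1 and changed by -0.016 ± 0.06 from day 1 to day 3 (edgeR adjusted p = 0.8469). Orc2, which binds Orc3 in the core, rose by 1.76 ± 0.095 at day 1, and Orc6, needed for helicase loading, by 1.03 ± 0.09. Orc1 was scarce beside its partners: on the TPM scale (transcript level corrected for length and library total), it stood at 0.0232 ± 0.0249 (SD, n = 6) of the mean of Orc2 to Orc5 in uninjured cells, 0.202 ± 0.0399 (n = 8) at day 1 and 0.106 ± 0.0265 (n = 8) at day 3. These ratios count all transcripts, and 56.4% of Orc4 counts in uninjured cells, 48.9% at day 1 and 48.1% at day 3 were in protein-coding ones.

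The loading factors Cdc6 and Cdt1 and the inhibitor Gmnn rose at day 1, and from day 1 to day 3 Cdc6 and Cdt1 fell while Gmnn did not pass the test. Cdc6, the ATPase that completes loading (chr11:98907801-98923940, GRCm38), had 0.160, 3.61 and 9.60 CPM in uninjured libraries, 127, 163 and 186 at day 1, and 65.3, 82.6 and 99.2 at day 3. Cdt1, which brings MCM2-7 to the origin, had 5.13, 13.0 and 17.6, then 117, 130 and 143 (lowest, median and highest at day 1), then 55.2, 69.6 and 87.3 at day 3. Gmnn, geminin, the inhibitor of Cdt1, had 1.86, 3.79 and 7.001, then 52.8, 58.9 and 81, then 52.3, 63.6 and 74.0. The day 3 libraries were all below the day 1 libraries for Cdc6 and Cdt1, and overlapped them for Gmnn. At day 1 the log2 fold change was 5.24 ± 0.31 for Cdc6 (adjusted p = 2.886e-11), 3.41 ± 0.20 for Cdt1 (adjusted p = 3.151e-12) and 3.98 ± 0.20 for Gmnn (adjusted p = 9.833e-15). At day 3 against uninjured the log2 fold changes were 4.30 ± 0.31, 2.53 ± 0.20 and 4.02 ± 0.20. From day 1 to day 3, Cdc6 fell by 0.94 ± 0.21 (adjusted p = 0.001087) and Cdt1 by 0.88 ± 0.16 (adjusted p = 8.644e-05) on the log2 scale, while Gmnn changed by 0.04 ± 0.14 (adjusted p = 0.8144), with edgeR's test. The ratio of Cdt1 to Gmnn TPM was 0.812 ± 0.122 (SD, n = 8) at day 1 and 0.440 ± 0.0735 (n = 8) at day 3, with every day 3 library (0.304 to 0.517) below every day 1 library (0.588 to 0.987). In uninjured libraries, where both genes are scarce, the ratio ran from 0.372 to 3.30.

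All 6 subunits of the helicase ring rose at day 1, and all 6 fell from day 1 to day 3. Mcm2 (chr6:88883474-88898780, GRCm38) had 15.6, 28.0 and 43.3 CPM in uninjured libraries, 402.5, 469 and 489 at day 1, and 294, 319.9 and 393 at day 3. Mcm5 had 12.7, 22.7 and 35.2, then 373, 445 and 499, then 233, 262.5 and 306.5. Mcm7 had 95.1, 118 and 143.5, then 511, 587 and 660.1, then 339.9, 363 and 403. For these 3 subunits the uninjured libraries stood far below both injured states. Mcm3 had 25.2, 45.8 and 53.2 CPM, then 489, 598 and 629.6, then 296, 328 and 369.8. Mcm4 had 42.1, 56.8 and 83.3, then 305.6, 384 and 398.5, then 219, 239 and 270.3. Mcm6 had 32.7, 44.5 and 87.1, then 627, 704 and 805, then 381, 439.9 and 472. For all 6 subunits no uninjured library reached any injured library, and no day 3 library reached any day 1 library. Log2 fold changes at day 1 were 4.16 ± 0.17 for Mcm5 (adjusted p = 6.407e-15), 4.08 ± 0.17 for Mcm2 (adjusted p = 9.942e-15), 3.74 ± 0.12 for Mcm3 (adjusted p = 5.448e-18), 3.71 ± 0.19 for Mcm6 (adjusted p = 1.31e-12), 2.68 ± 0.09 for Mcm4 (adjusted p = 1.344e-17) and 2.32 ± 0.08 for Mcm7 (adjusted p = 8.305e-18, edgeR's quasi-likelihood test). At day 3 against uninjured they were 3.403 ± 0.17, 3.598 ± 0.17, 2.925 ± 0.115, 2.99 ± 0.19, 2.035 ± 0.09 and 1.64 ± 0.07 in the same order, with adjusted p of 6.433e-14 or less but for Mcm6 (edgeR adjusted p = 1.62e-11). Mcm2 fell least from day 1 to day 3, by 0.49 ± 0.13 (edgeR adjusted p = 0.003632), and Mcm3 most, by 0.82 ± 0.09 (adjusted p = 7.569e-08). Mean CPM at day 3 was 71.4% of day 1 for Mcm2, 64.1% for Mcm4, 62.3% for Mcm7, 60.9% for Mcm6, 59.4% for Mcm5 and 56.7% for Mcm3. The ring holds 1 copy of each subunit. The ratio of the highest to the lowest subunit's TPM was 10.97 ± 4.62 (SD, n = 6) in uninjured libraries, 2.47 ± 0.16 (n = 8) at day 1 and 2.42 ± 0.14 (n = 8) at day 3. The mean over the 6 subunits was 31.5 ± 6.61 TPM, 240.2 ± 12.8 TPM and 151 ± 10.9 TPM.

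**Figure D3:**
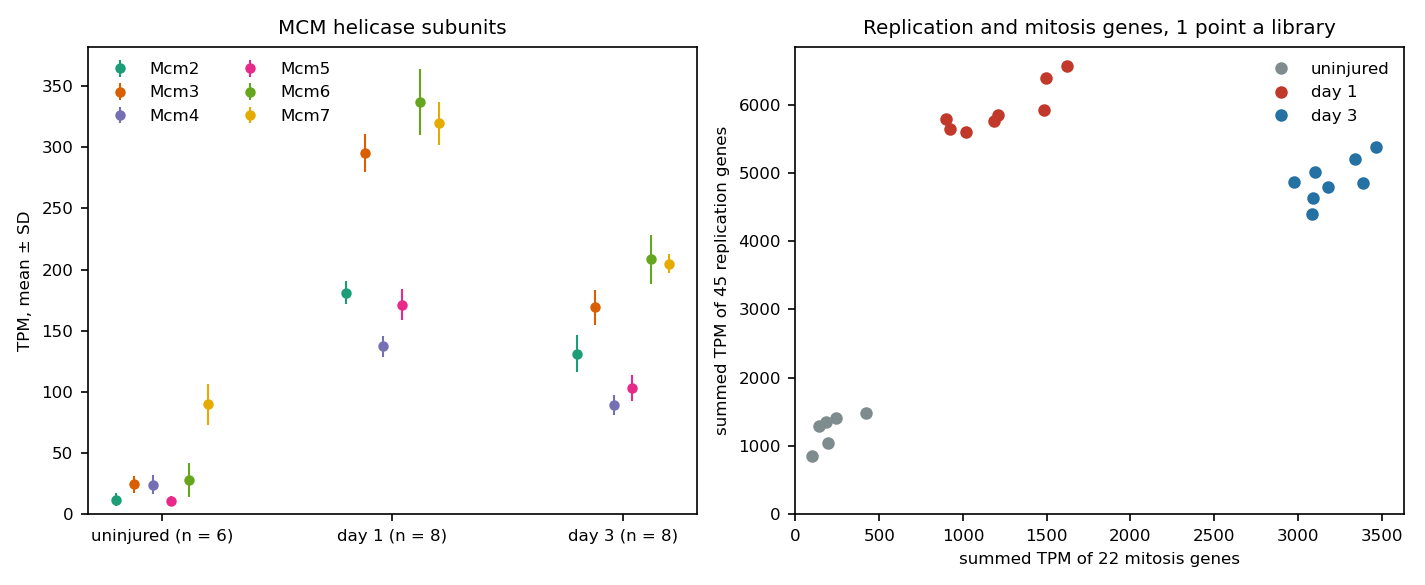
Left, mean TPM ± SD of each MCM subunit in uninjured (n = 6), day 1 (n = 8) and day 3 (n = 8) libraries; right, summed TPM of the 45 replication genes (vertical) against summed TPM of 22 mitosis genes (horizontal), 1 point a library. Replication genes sum highest at day 1 (mean 5941) and mitosis genes at day 3 (mean 3203).

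Among the factors that activate the helicase, Mcm10, which helps it start unwinding (chr2:4989714-5012791, GRCm38), rose most of the 45 genes at day 1. It had 0.143, 1.87 and 3.58 CPM in uninjured libraries, 65.6, 72.5 and 94.3 at day 1, and 47.1, 50.2 and 67.4 at day 3. No uninjured library overlapped an injured one, while the ranges of day 1 and day 3 overlapped. The log2 fold change was 5.29 ± 0.29 at day 1 (edgeR adjusted p = 7.007e-13) and 4.802 ± 0.29 at day 3 (adjusted p = 2.32e-12). The fall of 0.49 ± 0.18 from day 1 to day 3 (adjusted p = 0.02929) was lost without day 1 ZT4 replicate 2 (0.0682, the highest), day 1 ZT16 replicate 4 or day 3 ZT4 replicate 2.

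Cdc45, which with MCM2-7 and GINS makes the working helicase, rose by 3.93 ± 0.28 at day 1 and was 3.62 ± 0.28 above uninjured at day 3. The 4 subunits of GINS rose by unequal amounts at day 1: Gins1 by 2.84 ± 0.25, Gins2 by 2.40 ± 0.12, Gins3 by 1.675 ± 0.20 and Gins4 by 0.49 ± 0.10. Gins4 had 31.7, 43.4 and 55.0 CPM in uninjured libraries, 53.8, 60.03 and 71.2 at day 1, and 53.2, 58.0 and 66.1 at day 3, overlapping in all states (edgeR adjusted p = 7.485e-05 at day 1 and 0.0001635 at day 3). Gins3 had 4.97, 7.30 and 10.2 CPM, then 18.9, 23.7 and 27.7, then 8.21, 16.1 and 19.5, and its day 3 libraries overlapped both other states. Gins3 then fell by 0.62 ± 0.17 from day 1 to day 3 (edgeR adjusted p = 0.004027), the largest fall of the role. Cdc45, Gins1 and Gins4 did not pass that test (-0.31 ± 0.20, -0.36 ± 0.20 and -0.035 ± 0.09).

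Polymerase and primase genes rose by a median of 2.15 log2 units at day 1. Pole, the catalytic subunit of the leading-strand polymerase epsilon, had 2.88, 5.91 and 8.92 CPM in uninjured libraries, 53.0, 59.1 and 63.6 at day 1, and 33.0, 43.3 and 50.5 at day 3. Pold3, an accessory subunit of polymerase delta, had 37.5, 56.0 and 81.5, then 125, 133 and 163, then 54.6, 66.0 and 79.1. Pole separated all 3 states, whereas Pold3 at day 3 lay inside the uninjured range. Pole rose by 3.30 ± 0.16 at day 1 (adjusted p = 2.634e-15) and by 2.83 ± 0.16 at day 3, and fell by 0.47 ± 0.12 between them (adjusted p = 0.001909). Pold3 rose by 1.28 ± 0.10 at day 1 (adjusted p = 1.166e-11), was 0.25 ± 0.09 above uninjured at day 3 (adjusted p = 0.01833) and fell by 1.03 ± 0.09 from day 1 (adjusted p = 3.317e-10, edgeR). Between them at day 1 stood Pold2 of polymerase delta (1.635 ± 0.09), Pola1, the catalytic subunit of polymerase alpha (1.85 ± 0.11), Pola2, its accessory subunit (2.12 ± 0.12), Pold1, the catalytic subunit of delta (2.15 ± 0.09), Pole2 of epsilon (2.6 ± 0.19), and the primase subunits Prim2 (2.66 ± 0.115) and Prim1 (2.87 ± 0.12). From day 1 to day 3, 8 of the 9 fell. The exception was Pola2, with 12.8, 17.7 and 28.1 CPM in uninjured libraries, 71.2, 75.6 and 95.3 at day 1, and 77.1, 88.9 and 117 at day 3. Its injured states overlapped, and the change of 0.16 ± 0.10 did not pass the test (edgeR adjusted p = 0.1888).

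The clamp gene Pcna (chr2:132249162-132253314, GRCm38) had 42.0, 66.2 and 94.1 CPM in uninjured libraries, 410.3, 467 and 522 at day 1, and 218.5, 244 and 285 at day 3, with no overlap among the states. It rose by 2.78 ± 0.12 at day 1 (edgeR adjusted p = 1.312e-15) and by 1.88 ± 0.12 at day 3 (adjusted p = 5.571e-13). Its fall of 0.90 ± 0.10 from day 1 to day 3 (adjusted p = 8.26e-08) left 53.6% of the day 1 mean.

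The 5 subunits of the loader, replication factor C, rose at day 1 by less than Pcna in fold. Rfc5, a small subunit, had 50.2, 70.8 and 85.0 CPM in uninjured libraries, 157, 168 and 206 at day 1, and 141, 159.9 and 177 at day 3. Rfc1, the large subunit, had 35.4, 47.3 and 58.2, then 114, 125 and 139.5, then 73.0, 80.5 and 89.5. Rfc4, another small subunit, had 14.8, 18.9 and 28.2, then 113, 126 and 149, then 80.0, 92.5 and 106. All 3 lay above every uninjured library in both injured states, and only Rfc5 overlapped between day 1 and day 3. Log2 fold changes at day 1 were 1.35 ± 0.11 for Rfc5 (edgeR adjusted p = 4.672e-11), 1.425 ± 0.08 for Rfc1 (adjusted p = 5.712e-14), 2.14 ± 0.13 for Rfc2, 2.46 ± 0.13 for Rfc3 and 2.69 ± 0.12 for Rfc4 (adjusted p = 5.115e-16). At day 3 against uninjured Rfc1 was the smallest of the role (0.79 ± 0.08) and Rfc4 the largest (2.24 ± 0.115). From day 1 to day 3, 5 of the 6 clamp and loader genes fell, and Rfc5 did not pass the test (-0.15 ± 0.10, adjusted p = 0.1962).

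The 3 subunits of RPA, the trimer that coats single-stranded DNA, all rose at day 1 and then differed in direction. Rpa1, the large subunit, had 54.2, 81.7 and 110 CPM in uninjured libraries, 272, 289.9 and 350.3 at day 1, and 223, 259.9 and 271 at day 3. Rpa2, the middle subunit, had 24.8, 30.7 and 38.4, then 160.1, 168 and 205, then 90.7, 99.9 and 113.5. Rpa3, the small subunit, had 18.3, 21.6 and 25, then 32.5, 37.0 and 46.3, then 48.1, 52.3 and 60.8. All 3 separated the states, Rpa1 and Rpa2 with day 1 highest and Rpa3 with day 3 highest. Log2 fold changes at day 1 were 1.88 ± 0.105 for Rpa1 (edgeR adjusted p = 4.604e-14), 2.504 ± 0.10 for Rpa2 (adjusted p = 6.547e-17) and 0.86 ± 0.10 for Rpa3 (adjusted p = 1.718e-08). At day 3 against uninjured they were 1.67 ± 0.10, 1.725 ± 0.09 and 1.31 ± 0.10. Between day 1 and day 3 Rpa3 rose by 0.45 ± 0.085 (adjusted p = 7.783e-05), Rpa2 fell by 0.78 ± 0.08 (adjusted p = 1.238e-08) and Rpa1 fell by 0.22 ± 0.09 (edgeR adjusted p = 0.04381). The Rpa1 call was lost in 15 of the 22 fits that left out 1 library.

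Both genes that finish the lagging strand peaked at day 1. Fen1, the nuclease that trims flaps, had 28.99, 32.9 and 56.4 CPM in uninjured libraries, 225, 262.5 and 277 at day 1, and 182, 199 and 215 at day 3. Lig1, the ligase that seals the nicks, had 13.4, 19.9 and 27.4, then 159.9, 175 and 220.3, then 118, 133 and 159.1. The states did not overlap for either gene. Fen1 rose by 2.86 ± 0.11 (edgeR adjusted p = 6.547e-17) and Lig1 by 3.13 ± 0.12 (adjusted p = 8.926e-17) at day 1, and they fell by 0.39 ± 0.09 (adjusted p = 0.0006914) and 0.41 ± 0.10 (adjusted p = 0.0009564) from day 1 to day 3.

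Of the 4 genes of nucleotide supply, 3 rose again from day 1 to day 3. Rrm2, the regulated small subunit of ribonucleotide reductase (chr12:24708241-24714146, GRCm38), had 14.7, 53.5 and 94.0 CPM in uninjured libraries, 757, 873 and 1164 at day 1, and 1229, 1330 and 1489 at day 3. Rrm1, the large subunit, had 34.1, 52.9 and 72.3, then 320.6, 355 and 422, then 450.7, 503 and 555. Tk1, thymidine kinase of the salvage route, had 3.09, 7.85 and 17.8, then 73.6, 97.3 and 114, then 116, 131 and 167. For these 3 genes every day 3 library was above every day 1 library and every day 1 library above every uninjured one. Log2 fold changes at day 1 were 4.28 ± 0.25 for Rrm2 (adjusted p = 1.804e-11), 2.78 ± 0.13 for Rrm1 (adjusted p = 6.246e-15) and 3.35 ± 0.26 for Tk1 (adjusted p = 8.454e-10, edgeR). At day 3 against uninjured they were 4.85 ± 0.25, 3.27 ± 0.13 and 3.87 ± 0.26. From day 1 to day 3 the further rise was 0.565 ± 0.19 for Rrm2 (adjusted p = 0.01651), 0.49 ± 0.11 for Rrm1 (adjusted p = 0.000497) and 0.52 ± 0.20 for Tk1 (adjusted p = 0.03253, edgeR), the last of these lost in 7 of 22 omissions of 1 library. Tyms, the thymidylate synthase of the de novo route, had 24.0, 34.7 and 48.0 CPM in uninjured libraries, 149, 167 and 235 at day 1, and 155, 165 and 203 at day 3. Its day 1 and day 3 ranges overlapped, and both lay above every uninjured library. It rose by 2.35 ± 0.13 at day 1 (edgeR adjusted p = 4.235e-14), and the difference between day 3 and day 1 did not pass the test (-0.04 ± 0.11, adjusted p = 0.772). The ratio of Rrm2 to Rrm1 TPM was 5.04 ± 0.38 (SD, n = 8) at day 1 and 5.29 ± 0.14 (n = 8) at day 3. In uninjured libraries it was 0.931, 0.934 and 1.65 at ZT4 and 2.28, 2.67 and 2.95 at ZT16, below every injured library.

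**Figure D4:**
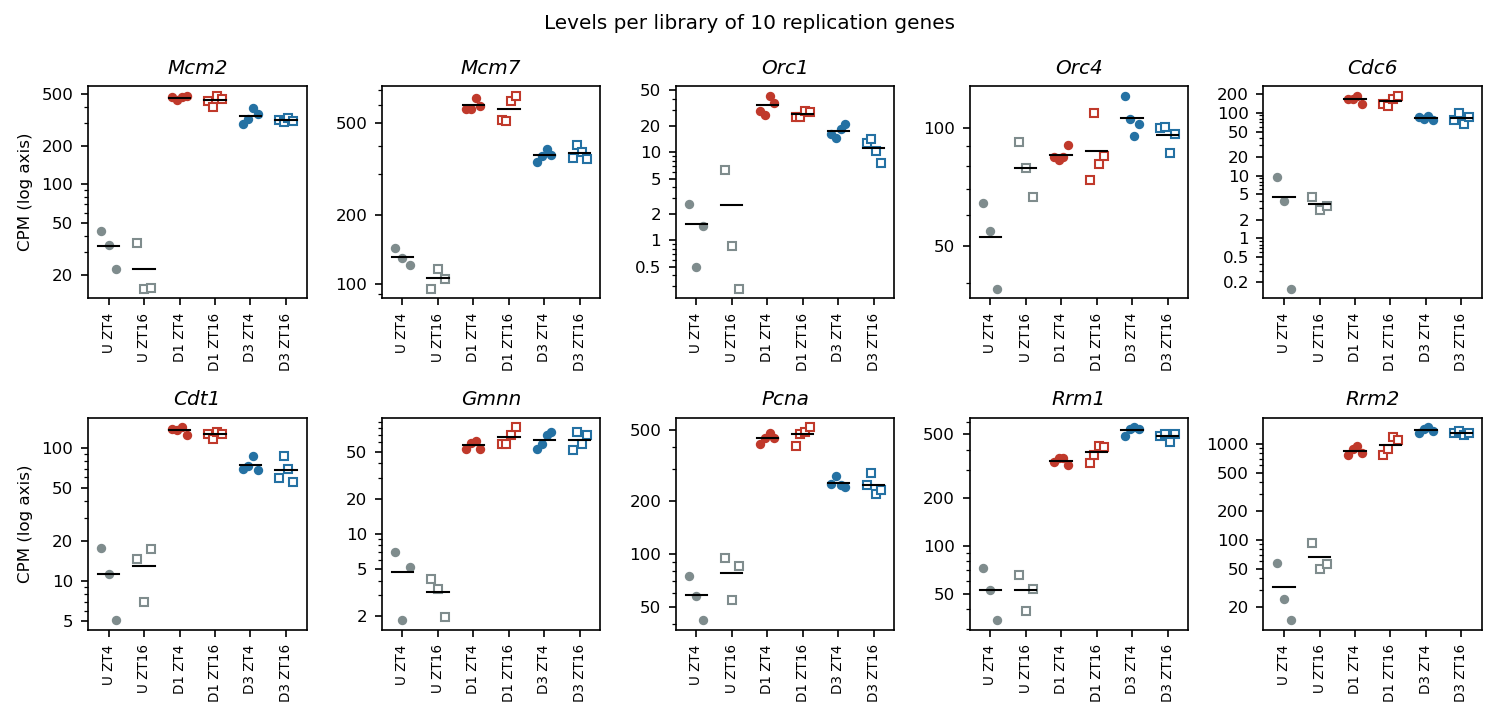
CPM (vertical log axis, own range in each panel) of 10 replication genes in every library, with U for uninjured, D1 for day 1 and D3 for day 3; filled circles are ZT4, open squares ZT16 and black bars group means. Rrm1 and Rrm2 climb from uninjured through day 1 to day 3, while Mcm2, Mcm7, Cdc6, Cdt1 and Pcna peak at day 1.

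Compared per length, Rrm2 was the most abundant of the 45 transcripts after injury, at 603 ± 95.3 TPM (SD, n = 8) at day 1 and 897 ± 78.2 TPM (n = 8) at day 3. Pcna followed at day 1 with 452 ± 33.4 TPM, then Mcm6 with 337 ± 27.2 TPM and Mcm7 with 320 ± 17.5 TPM, neighbours whose SDs overlap. In uninjured cells Mcm7 (89.8 ± 16.8 TPM, n = 6), Orc4 (80.4 ± 34.9 TPM) and Pcna (76.4 ± 27.8 TPM) led, and these 3 did not differ beyond their spread. Much of the Orc4 value lay in transcripts annotated as processed, without a coding frame: Orc4-206, Orc4-212 and Orc4-213 held means of 23.5%, 20.9% and 10.2% of its TPM in uninjured libraries, against 14.3% and 10.1% for the coding transcripts Orc4-201 and Orc4-208. Orc1 (1.19 TPM) and Mcm10 (1.70 TPM) were lowest there.

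Most of the machinery was lower at day 3 than at day 1. Of the 45 genes 31 were lower at day 3, against 28.7% of all genes tested, and 5 were higher, against 26.7%. The median log2 fold change of the 45 was -0.451, against -0.017 for all genes. Every day 3 library was below every day 1 library for 25 genes (55.6%, against 12.3% of all genes tested), among them all 6 MCM genes, Orc1, Cdc6, Cdt1, Pcna, Fen1 and Lig1. Every day 3 library was above every day 1 library for 4 genes (8.89%, against 13.7%), which were Rpa3, Rrm1, Rrm2 and Tk1. The fifth gene called higher was Orc4 (0.23 ± 0.095, edgeR adjusted p = 0.048). This comparison uses the same day 1 and day 3 libraries as those against uninjured. Of the 31 falls, those of Orc1 and Pold3 reached 1 log2 unit, against 1767 of the 4328 falls called over all genes tested. Leaving out single libraries ended 8 of the 36 calls, those of Rpa1, Pole2, Orc2, Orc4, Orc6, Gins2, Mcm10 and Tk1, with adjusted p of up to 0.115, 0.0752, 0.1002, 0.2465, 0.1053, 0.0833, 0.0682 and 0.0638 in edgeR's test. The Rpa1 call was lost in 15 of 22 omissions, those of Orc2 and Orc6 in 12 each, Orc4 in 11, Pole2 in 10, Gins2 in 8, Tk1 in 7 and Mcm10 in 3. The count of higher genes went from 5 to 3 without day 1 ZT4 replicate 1, day 1 ZT16 replicate 1, day 3 ZT4 replicate 1, day 3 ZT16 replicate 2 or day 3 ZT16 replicate 4. In the same comparison 10 of 12 macrophage markers were lower at day 3, and the 8 markers of fibro-adipogenic cells, the connective tissue progenitors of muscle, summed to between 519 and 823 CPM (not TMM-scaled) at day 1 and between 1419 and 3338 at day 3. Neutrophil markers were lower in 5 of 5 genes tested (median -3.93) and muscle stem cell markers in 7 of 10, with 2 higher (median -1.04). All 12 immediate early genes were lower at day 3 as well (median -1.78), and their sum ran from 3036 to 16018 CPM (not TMM-scaled) at day 1 and from 1890 to 4497 at day 3. The part of all these in the differences was not tested.

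**Figure D5:**
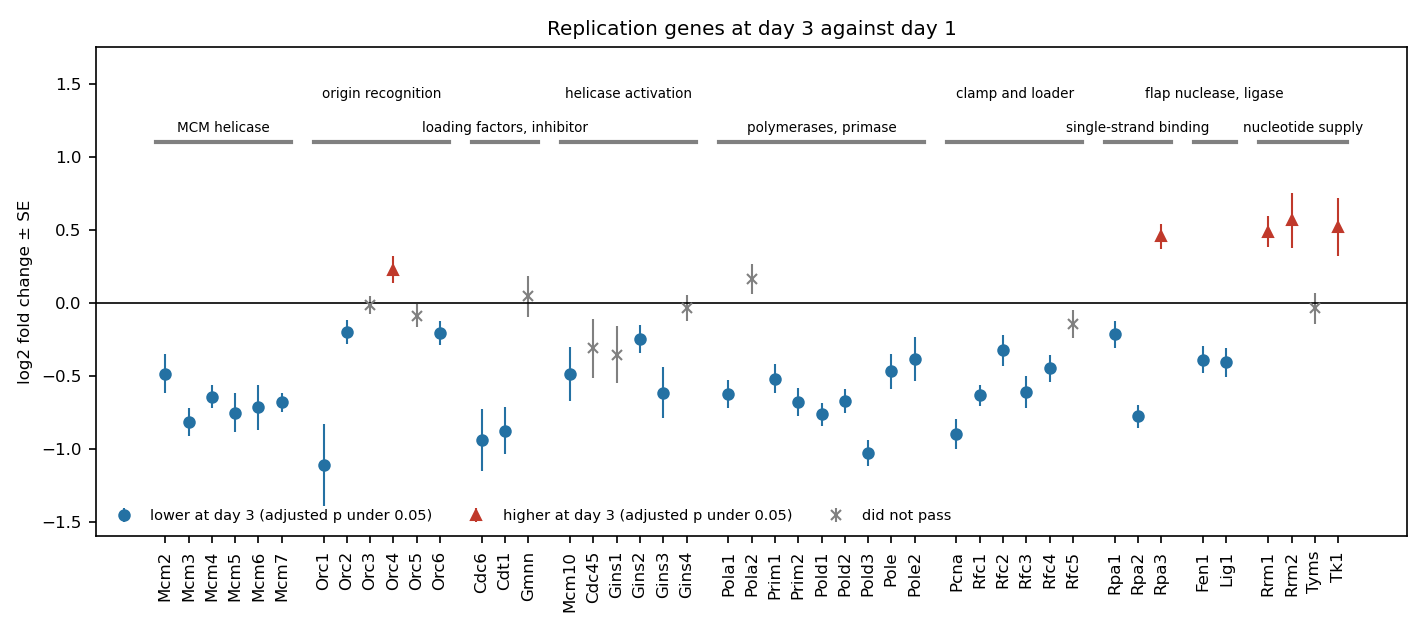
Log2 fold change ± SE (vertical axis) of each of the 45 genes at day 3 against day 1, coloured by call. Most points lie below 0, led by Orc1 (-1.11) and Pold3 (-1.03), while Rrm1, Rrm2, Tk1, Rpa3 and Orc4 lie above it.

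Other genes of the pathway, in lists kept apart from the 45, moved as follows. Of 40 further replication genes (kinases, checkpoint mediators, chromatin assembly factors and nucleotide enzymes), 38 rose and 1 fell at day 1 with a median of 2.42, 37 rose and 3 fell at day 3 against uninjured, and 1 rose and 25 fell from day 1 to day 3. Ctps, which makes CTP, rose by 2.37 ± 0.09 and Umps, of pyrimidine synthesis, by 2.59 ± 0.10 at day 1. Rrm2b, the p53-inducible small subunit of ribonucleotide reductase, fell by 0.69 ± 0.17 at day 1 and by 1.37 ± 0.17 at day 3 against uninjured, opposite to Rrm2. A list of 19 genes held E2F factors and a partner, cyclins, a cyclin-dependent kinase and its regulators, among them kinase inhibitors, and the Rb family. Of these 19, 15 rose and 4 fell at day 1, and 12 rose and 2 fell from day 1 to day 3. In the latter comparison E2f8, a repressor among the E2F factors, rose by a further 1.885 ± 0.13, and E2f1, an activator, fell by 1.12 ± 0.14.

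Mitosis genes were highest at day 3, when most of the replication genes had fallen from their day 1 level. Ube2c, the ubiquitin-conjugating enzyme of the anaphase-promoting complex, rose by 1.92 ± 0.105 from day 1 to day 3 and Cenpe, a kinetochore motor, by 1.53 ± 0.13. All 22 were higher than uninjured at day 1 and at day 3, with medians of 2.88 and 3.99, and 19 of 22 rose from day 1 to day 3 with a median of 1.38 and none lower. Summed TPM of the 45 replication genes was 1239 ± 244 in uninjured cells (SD, n = 6), 5941 ± 350 at day 1 (n = 8) and 4892 ± 309 at day 3 (n = 8), while that of the mitosis list was 214 ± 112, 1229 ± 278 and 3203 ± 174. The ratio of the sums was 5.01 at day 1, from 3.998 to 6.465, and 1.53 at day 3, from 1.425 to 1.64, with no overlap.

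In uninjured cells, 8 of the 45 genes differed between ZT16 and ZT4. At ZT16 6 were higher (13.3%, against 8.53% of all genes tested) and 2 were lower (4.44%, against 9.12%). Orc2 had 31.7, 23.5 and 26.8 CPM at ZT4 and 49.2, 40.1 and 44.6 at ZT16. Pold3 had 47.65, 37.5 and 51.1 at ZT4 and 71.1, 60.8 and 81.5 at ZT16. Rrm2 had 57.0, 24.6 and 14.7 at ZT4 and 94.0, 50.4 and 56.6 at ZT16. The times did not overlap for Orc2 and Pold3, and overlapped for Rrm2. Log2 fold changes were 0.705 ± 0.14 for Orc2 (adjusted p = 0.00114), 0.65 ± 0.14 for Pold3 (adjusted p = 0.002461) and 1.05 ± 0.325 for Rrm2 (adjusted p = 0.03307, edgeR). Mcm4 (0.56 ± 0.13), Orc4 (0.59 ± 0.16) and Rfc1 (0.38 ± 0.12) were the other 3 called higher. Gins2 had 20.6, 13.5 and 26.1 CPM at ZT4 and 13.5, 8.998 and 9.94 at ZT16, a log2 fold change of -0.88 ± 0.18 (adjusted p = 0.001392), and Mcm7 fell by 0.32 ± 0.11 (adjusted p = 0.04331).

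These calls rest on few libraries. Leaving out 1 library ended those of Rrm2 (without ZT4 replicate 2 or 3, or ZT16 replicate 1), Orc4 (ZT4 replicate 3 or ZT16 replicate 1), Rfc1 (ZT4 replicate 2 or 3, ZT16 replicate 1 or 2) and Mcm7 (ZT4 replicate 1 or 2, ZT16 replicate 1 or 3, and 3 libraries of injured muscle), with adjusted p of up to 0.1889, 0.0821, 0.139 and 0.1782 in edgeR's test. The immediate early genes were raised in ZT16 replicates 1 and 3, and with both left out, so that ZT16 rests on 1 library assumed to vary like the others, 0 of the 45 were called higher and 2 lower, Gins2 and Mcm2, by edgeR (13 at unadjusted p under 0.05). When ZT4 replicate 1 was left out the counts were 13 higher and 1 lower, and without ZT4 replicate 3 they were 3 and 6. Without ZT16 replicate 1 there were 3 higher and 3 lower, and edgeR's fit of the 6 uninjured libraries alone called 0 either way. Spread was wide in this state: the median coefficient of variation of the 45 genes was 31.1% at ZT4 and 18.9% at ZT16 (23.3% and 19.9% over all genes), against 7.07% and 11.8% at day 1. ZT4 replicate 1 was the highest uninjured library for 22 of the genes, and ZT4 replicate 3 the lowest for 19. The lowest estimated counts in an uninjured library were 1 for Cdc6, 1 for Mcm10 and 2 for Orc1, so fold changes of these genes carry counting error on the uninjured side.

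After injury no gene of the 45 passed the test between the times. At day 1, 0 were called (0.0% of all genes tested) by edgeR, DESeq2 or limma voom, 0 had an unadjusted p under 0.05, and the log2 difference ran from -0.33 for Orc1 to 0.25 for Tk1. At day 3, 0 were called (0.0% of all genes tested) by the same 3 tools and 1 had an unadjusted p under 0.05, Pola1 (-0.475, adjusted p = 0.6885), with a range from -0.63 for Orc1 to 0.17 for Tk1. An interval of 2 SE either side lay within 1 log2 unit for 44 of 45 genes on each day, the exception being Orc1.

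The change in the time difference after injury was tested as an interaction. The hour may mark different events in uninjured and injured groups, which the test cannot tell apart from an effect of injury. Against uninjured, the ZT16 minus ZT4 difference was higher at day 1 for 1 gene (against 3.93% of all genes tested), Gins2 (0.88 ± 0.23, edgeR adjusted p = 0.01895). It was lower for 2 genes (against 3.53%), Orc2 (-0.75 ± 0.18, adjusted p = 0.0143) and Mcm4 (-0.62 ± 0.17, adjusted p = 0.02557). At day 3 it was higher for Gins2 (1.02 ± 0.23, edgeR adjusted p = 0.004222), against 6.8% of all genes tested. It was lower at day 3 for 6 genes (against 5.97%), Orc2 (-0.93), Orc4 (-0.73), Pola1 (-0.72), Mcm4 (-0.665), Pold3 (-0.66) and Rfc1 (-0.475).

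Both interaction tests use the same uninjured libraries. Without ZT16 replicates 1 and 3 the lower calls went to 0 on both days, and the higher calls to 0 at day 1 and 2 at day 3. At day 1 the higher count was 0 without ZT16 replicate 3, 3 without ZT16 replicate 1 and 2 without ZT4 replicate 2, and the lower count was 4 without ZT4 replicate 1 and 1 without ZT4 replicate 2 or ZT16 replicate 1 or 3. Without ZT4 replicate 1 the day 3 count of lower differences was 12, without ZT4 replicate 2 or 3 it was 3, and without ZT16 replicate 1 it was 2. The day 3 count of higher differences was 3 without ZT4 replicate 2 or ZT16 replicate 1, and 2 without ZT4 replicate 3 or ZT16 replicate 2. Single omissions ended the calls of Mcm4 and Gins2 at day 1 (adjusted p of up to 0.1043 and 0.0561) and of Pola1, Mcm4, Orc4, Rfc1 and Pold3 at day 3 (up to 0.1103, 0.0524, 0.0831, 0.1367 and 0.0738). Only the calls of Orc2 on both days and of Gins2 at day 3 were kept in every single omission. Exons of Orc2 and of Gins2 overlap exons of a gene on the opposite strand. The share of Gins2 counts in protein-coding transcripts ran from 0.0% to 98.0% over uninjured libraries. Between day 3 and day 1, 0 of the 45 differed in their time effect (0.0% of all genes tested) by edgeR, with 1 at an unadjusted p under 0.05, and 0 by DESeq2 or voom.

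The files give transcripts, and their types in GENCODE M21 (GRCm38) show that the share of a gene's estimated counts in protein-coding transcripts shifted for some genes. For Prim1 that share was 60.6% of pooled counts in uninjured cells (47.1% to 79.4% by library), 88.4% at day 1 (84.5% to 91.9%) and 84.8% at day 3. Tk1 gave 57.4% (2.63% to 71.7%) in uninjured cells and 87.1% (80.6% to 91.7%) at day 1, and Tyms 20.3% (13.2% to 28.8%) and 31.3% (29.8% to 34.5%). For these 3 genes the uninjured and day 1 ranges did not overlap. Other genes went the opposite way. The share of Pold3 was 91.4% (87.0% to 96.3%) in uninjured cells and 80.6% (74.9% to 85.9%) at day 1, without overlap. Cdc6 went from 94.1% to 86.2% and Pole from 93.6% to 85.1%, with overlapping ranges. Transcripts with a retained intron took 39.4% of Prim1 counts and 42.6% of Tk1 counts in uninjured cells, and 11.6% and 12.9% at day 1. Counted over coding transcripts alone, the ratio of day 1 to uninjured CPM, here on unadjusted library totals, was 10.3 for Prim1 (7.01 over the whole gene), 15.7 for Tk1 (10 over the gene), 7.48 for Tyms (4.86) and 68.3 for Mcm10 (39.9). For Orc4 it was 1.1, against 1.27 over the gene. For Pold3 the coding ratio of day 3 to uninjured CPM was 1.02, against 1.12 over the gene. Protein-coding transcripts held 24.6% of Lig1 counts in uninjured cells (0.0% to 61.1% by library), 27.3% at day 1 and 23.5% at day 3. For Rfc1 a mean of 12.9% of counts in uninjured cells, 25.7% at day 1 and 21.6% at day 3 lay in transcripts with a type in GENCODE M21. The division of reads among transcripts of a gene is an estimate. Over all genes, transcripts with retained introns took 3.95% to 4.6% of counts in uninjured libraries and 2.81% to 3.16% at day 1, and the part of this shift in the gene values was not tested. Exons of 14 of the 45 genes overlap exons of a gene on the opposite strand, among them Mcm7, Orc1, Orc2, Orc4, Gins2, Fen1 and Tk1. Whether counting used strand is not given in the sources used here, so reads of such partners may not be separated.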

How the data were processed

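RNA of 22 libraries in 6 groups was processed by the authors with Trimmomatic 0.33, STAR 2.5.2 and RSEM 1.3.3 on mm10, and DESeq2 is also named, per the submitters' processing notes; libraries were made with SMART-seq v4, per the labels' protocols. The deposited files hold, per the file headers, expected counts, TPM and effective length for 103732 transcripts. The deposited expected counts were added up per Ensembl gene and rounded to whole numbers. The deposited TPM were added up likewise. The deposited effective lengths (another quantity, in bases) served only for levels in CPM per kilobase. Symbols, positions and transcript types came from GENCODE M21.

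Genes were filtered with filterByExpr (minimum count 10, minimum total 15), scaled by TMM (factors 0.942 to 1.094) and tested with edgeR 4.0.16's robust quasi-likelihood test in 1 fit of 6 group means, with Benjamini-Hochberg adjustment over 15084 genes and a threshold of 0.05 (R 4.3.3, limma 3.58.1, DESeq2 1.42.0; Python 3.11.15, numpy 2.4.6, pandas 2.3.3, matplotlib 3.10.9). The test returns no SE. The SE of a log2 fold change was derived as its absolute value divided by the square root of the test's F, which can be unstable for changes near 0. The scripts were tested on simulated data. Alternatives were DESeq2, limma voom, other scalings, no filter, only the libraries compared, each library left out, uninjured ZT16 replicates 1 and 3 left out, and a replicate block; replicate numbers did not pair libraries (deviations of same-numbered libraries correlated from -0.098 to 0.172, 3 of 51 pairs over 0.1).

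The genes and lists were chosen with earlier results of these data known. All 45 genes may be named; full values went to the largest and smallest change in each role, and to the MCM genes, Cdt1, Gmnn, Orc1, Pcna, Rrm1 and Rrm2. Of other lists, the 2 genes with the smallest p in a direction could be named. At day 1 against uninjured, 34.6% of all genes tested were higher and 40.6% lower. Among markers tested, 1 of 1 lymphoid, 6 of 7 mural and 7 of 8 myofiber genes were lower. Higher were 5 of 5 neutrophil and 1 of 4 erythroid genes. Of 7 endothelial genes 1 was higher and 1 lower, of 8 fibro-adipogenic 2 and 4, and of 12 immediate early 3 and 1. Fibro-adipogenic markers summed to between 2886 and 4127 CPM (not TMM-scaled) in uninjured libraries and between 519 and 823 at day 1. The part of these in the differences was not tested.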

Additional observations from a re-analysis of the deposited data

Results flagged for a closer look

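In groups of 4 libraries, 4 of 180 tests found a library far from the other 3, and chance gives about 1 in 20. Rfc5 stood at 200.6 CPM in day 1 ZT4 replicate 3, with the others between 157 and 163.3. Mcm4 stood at 305.6 CPM in day 1 ZT16 replicate 2 (others 383.3 to 385.8), and Orc5 at 64.48 CPM in the same library (others 52.81 to 53.4). Tk1 stood at 81.76 CPM in day 1 ZT16 replicate 1 (others 109.5 to 113.7).

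The ZT16 minus ZT4 difference itself differed between uninjured and injured cells, by edgeR's interaction test with adjusted p under 0.05, for 3 genes at day 1 and 7 at day 3. At day 1, 2.22% of the 45 were higher and 4.44% lower, against 3.93% and 3.53% of all genes tested. At day 3 these shares were 2.22% and 13.3%, against 6.8% and 5.97%. In log2 units the differences at day 1 were -0.619 for Mcm4, -0.746 for Orc2 and 0.884 for Gins2. At day 3 they were -0.718 for Pola1, -0.665 for Mcm4, -0.929 for Orc2, -0.731 for Orc4, -0.475 for Rfc1, -0.658 for Pold3 and 1.019 for Gins2. No explanation of these was tested.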

How the results depend on the processing

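All 45 genes were higher than uninjured at day 1 and at day 3 under every alternative run, and the counts of 0 for ZT16 against ZT4 at day 1 and day 3, and for the difference of those effects, were 0 under each. The same 10 genes had the highest levels per length by CPM per kilobase. That scale uses effective lengths weighted by TPM and is nearly proportional to TPM by construction. The match was therefore fixed in advance and is no check of the levels. From day 1 to day 3, 5 genes were higher and 31 lower; leaving out 1 library gave 3 to 5 and 25 to 31, and leaving out uninjured ZT16 replicates 1 and 3 together gave 3 higher. For ZT16 against ZT4 in uninjured cells (6 higher, 2 lower), 1 library left out gave 3 to 13 and 1 to 6; the fit of only the libraries compared gave 0 and 0; without ZT16 replicates 1 and 3 there were 0 higher; voom gave 0 lower. For the time effect at day 1 against uninjured (1 higher, 2 lower), 1 library left out gave 0 to 3 and 1 to 4, voom 0 and 1, only the libraries compared 0 and 1, and without ZT16 replicates 1 and 3 the counts were 0 and 0. At day 3 against uninjured (1 higher, 6 lower), 1 library left out gave 1 to 3 and 2 to 12, voom 0 higher, only the libraries compared 3 lower, and without ZT16 replicates 1 and 3 there were 2 higher and 0 lower. With the replicate block, 4 genes were higher and 30 lower from day 1 to day 3 (Rpa1 and Tk1 were lost), and 6 higher and 2 lower in uninjured cells; the numbers do not pair the libraries. The causes were not tested.

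No called gene changed direction under an alternative. Depth limits the uninjured state most: the lowest estimated count in a library there was 1 for Cdc6 and Mcm10, 2 for Orc1 and 3 for Cdc45.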
